A study of Mus musculus with 7 samples.

Results

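The 37 genes described here mark the blood vessels and lymphatic vessels of the heart: 28 endothelial genes, 3 lymphatic genes, 4 pericyte genes and 2 smooth muscle genes. They were chosen by name, and each was measured by the non-control probe of that name with the highest mean signal over the arrays. All 37 were on the array and all 37 passed the filter on dim probes, among 22971 genes tested in all. RNA of hearts was measured on one-colour arrays from Agilent, and the mice were adult and female.

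The first group is the Brg1/Brm double knockout, with 4 hearts (Mutant_175, Mutant_182, Mutant_187 and Mutant_188, labelled Tg + Tamoxifen). In these Brm null mice Brg1 was deleted in the adult by a tamoxifen-induced Cre-ERT under an MHC (myosin heavy chain) promoter, known as a promoter of heart muscle cells. Recombination in vessel cells was not measured here. The second group is the wild type, with 3 hearts (Wild Type_181, Wild Type_183 and Wild Type_189, labelled NTg + Tamoxifen). Both groups received tamoxifen, and the labels do not give the Brm status of the wild type mice. As cell type the labels give cardiomyocytes, but the source is heart and the RNA came from a kit for animal tissue. Every one of the 37 vascular genes was well above background on all 7 arrays. These signals do not settle whether the tissue was whole or enriched for heart muscle cells. Apart from the sample names nothing says that the hearts came from separate mice, so the p-values cover the spread among these samples and no more.

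Brg1 and Brm are the alternative ATPases of SWI/SNF, a complex that moves nucleosomes. Endothelial cells line every vessel and respond to VEGF ligands through Flt1, Kdr and Flt4 and to angiopoietins through the receptor Tek. Angpt1, made by cells around the vessel, activates Tek and keeps vessels quiet, while Angpt2 mostly opposes it. Pericytes and smooth muscle cells wrap the endothelial tube and are recruited by Pdgfb acting on Pdgfrb, and Prox1 sets the identity of lymphatic endothelium.

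Signals are given relative to the 75th percentile of their own array, on a linear scale, and fold changes are log2 of knockout over wild type with their SE from limma, fitted across all genes with Benjamini-Hochberg adjustment and a threshold of 0.05. Between 58.1% and 63.6% of spots per array were well above background and 0 were saturated. The Smarca4 (Brg1) signal was 5.87, 10.3, 14.9 and 8.25 in knockout hearts, against 34.7, 32.8 and 34.2 in wild type hearts, a log2 change of -1.87 ± 0.29 (limma adjusted p = 0.0021). Smarca2 (Brm) differed by 0.08 ± 0.11 (adjusted p = 0.59), and the sources used here do not give where its probe lies in the Brm null allele, so it checks nothing. All arrays lay on 1 slide and 1 scan, but per the file headers the knockout arrays filled one row of the slide and the wild type arrays the other, so slide row and group cannot be told apart.

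Of the 37 genes, 4 were higher and 11 lower in knockout hearts, and 22 did not pass the threshold, while scaling to the spike-in RNA gave 8 higher and 3 lower. Under spike-in scaling 44.6% of all genes were called, 37.2% higher and 7.44% lower, and the members' counts under that scaling are to be read against these shares. Leaving out any 1 of the 3 wild type arrays gave 7 lower. The shares over all genes in fits without single arrays are not given here. Such counts, here and below, therefore do not show that these genes lose calls more than others. With percentile scaling and all arrays, 40.5% of the members were called, against 42.1% of all genes tested. By direction it is 10.8% higher against 16.3% of all genes, and 29.7% lower against 25.8% of all genes. With percentile scaling the total share called was thus near that of all genes. The share called higher was smaller than among all genes under both scalings, a difference that was not tested. The median log2 change of the 37 genes was -0.19, against -0.12 over all genes. The 4 knockout arrays and the 3 wild type arrays did not overlap for 20 of the 37 genes: 5 were wholly above and 15 wholly below in the knockout. Among all genes, 51.2% did not overlap, 19.6% above and 31.6% below.

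**Figure D1:**
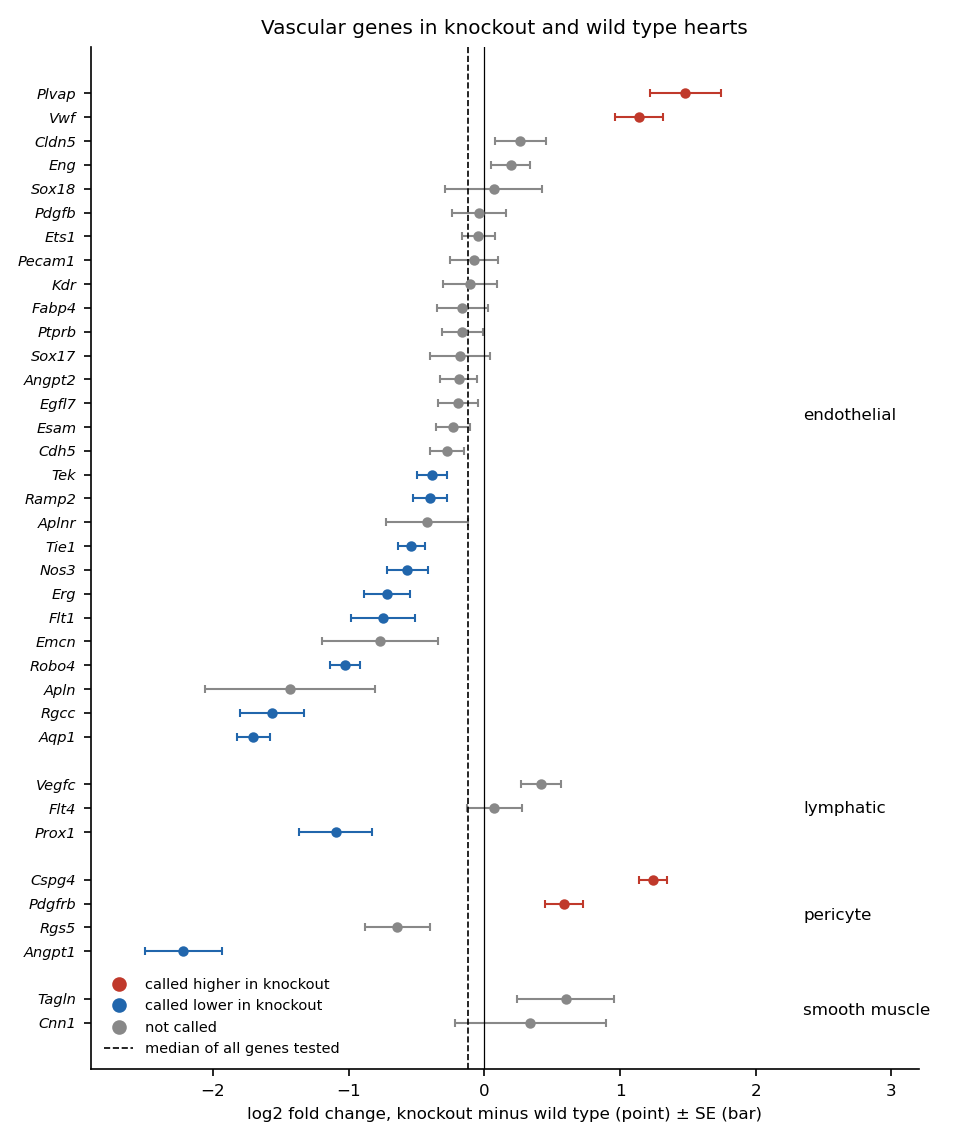
Log2 fold change of each of the 37 vascular genes, knockout minus wild type, on the x axis, with the SE from limma as bars, grouped by cell class down the page. Red points passed the threshold as higher and blue points as lower, and the dashed line is the median of all genes tested, -0.12. Changes run between -2.22 for Angpt1 and 1.48 for Plvap, and most endothelial genes lie between these and close to 0.

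Of the 28 endothelial genes, 9 were lower and 2 higher in knockout hearts (2 lower and 4 higher when scaled to the spike-in RNA), 17 did not pass, and the median change was -0.21. This is 39.3% called, 32.1% lower and 7.14% higher, against 42.1%, 25.8% and 16.3% of all genes. Genes for transport, signalling and transcription in endothelium were among the 9 that fell: Aqp1, Rgcc, Robo4, Flt1, Erg, Nos3, Tie1, Ramp2 and Tek. The 2 that rose were Vwf and Plvap. Of the endothelial genes, 5 were lower without Wild Type_183 or without Wild Type_189, and 6 without Mutant_188 or without Wild Type_181. In bulk tissue, fewer cells of a type and less RNA per cell cannot be told apart.

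Aqp1, a water channel of capillary endothelium, had a signal of 40.7, 44.1, 43.3 and 52.7 in knockout hearts, against 144, 148 and 147 in wild type hearts. Every knockout heart was below every wild type heart, and the spread within each group was small beside the gap. On the log2 scale it changed by -1.70 ± 0.12 (adjusted p = 8.3e-05), 3.26-fold higher in wild type. The probe lies at chr6:55298480-55298539 on the plus strand of mm9.

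Rgcc, a regulator of the cell cycle, had a signal of 23.5, 22.4, 17.0 and 35.6 in knockout hearts, against 65.1, 74.8 and 71.1 in wild type hearts. Mutant_188 was the highest of the knockout hearts, still well under the wild type. The log2 change was -1.56 ± 0.24 (adjusted p = 0.0018), with the probe at chr14:79688717-79688776 on the minus strand of mm9.

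Robo4, an endothelial roundabout receptor that stabilises vessels, had a signal of 11.4, 13.0, 12.6 and 13.0 in knockout hearts, against 23.7, 24.9 and 27.9 in wild type hearts. The groups did not overlap and the 4 knockout hearts were closely alike. Its log2 change was -1.03 ± 0.11 (adjusted p = 0.00046), with the probe at chr9:37221537-37221596 on the plus strand of mm9. Scaled to the spike-in RNA in place of the percentile, the adjusted p of Robo4 was 0.074.

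The other 6 fell by less. Flt1, a VEGF receptor that also acts as a decoy, changed by -0.75 ± 0.24 (adjusted p = 0.039). Erg, an ETS transcription factor that maintains endothelial identity, changed by -0.72 ± 0.17 (adjusted p = 0.012). These are changes of well under the size of Aqp1, though knockout and wild type hearts did not overlap for either gene. Nos3, the endothelial nitric oxide synthase, changed by -0.57 ± 0.15 (adjusted p = 0.021), and Tie1, the partner receptor of Tek, by -0.54 ± 0.10 (adjusted p = 0.0051). Ramp2, which turns Calcrl into the adrenomedullin receptor, changed by -0.40 ± 0.12 (adjusted p = 0.036). Tek, the angiopoietin receptor, changed by -0.38 ± 0.11 (adjusted p = 0.028). The groups did not overlap for any of these 4 genes. Of all genes tested 31.6% were likewise wholly below in the knockout, so the lack of overlap adds no support to these calls. With quantile normalization Flt1, Ramp2 and Nos3 did not pass (adjusted p = 0.11, 0.24 and 0.061). With no filter Flt1, Tek and Ramp2 did not (adjusted p = 0.069, 0.06 and 0.072). With the mean over kept probes Flt1 was -0.25 (adjusted p = 0.54) and Ramp2 -0.34 (adjusted p = 0.07). Flt1, Ramp2, Tek and Nos3 lost the call when single arrays were left out: Flt1 and Ramp2 without any one of Mutant_187, Mutant_188 or a wild type array (adjusted p up to 0.11 and 0.12), Tek without Mutant_182 or any wild type array (up to 0.12), and Nos3 without Mutant_188, Wild Type_183 or Wild Type_189 (up to 0.084). Scaled to the spike-in RNA, Tie1, Tek and Ramp2 turned to 0.03, 0.18 and 0.17, and Flt1, Erg and Nos3 no longer passed, with adjusted p of 0.62, 0.63 and 1.0.

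Vwf and Plvap moved the other way. Vwf, the clotting glycoprotein stored in endothelial granules and richest in veins and endocardium, had a signal of 35.2, 22.5, 27.3 and 22.01 in knockout hearts, against 11.9, 12.2 and 11.7 in wild type hearts. Mutant_175 was the highest and all 4 knockout hearts lay above the wild type. Relative to wild type, the log2 change came to 1.14 ± 0.18 (adjusted p = 0.0022), 2.20-fold higher in knockout hearts, with the probe at chr6:125636551-125636610 on the plus strand of mm9.

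Plvap, the protein of the diaphragms that close endothelial fenestrae and caveolae, had a signal of 3.76, 4.08, 7.91 and 4.35 in knockout hearts, against 1.89, 1.54 and 1.74 in wild type hearts. Mutant_187 was far above the other knockout hearts, and the lowest knockout heart was still above the highest wild type heart. On the log2 scale it changed by 1.48 ± 0.26 (adjusted p = 0.0037), with the probe at chr8:74021877-74021936 on the minus strand of mm9.

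**Figure D2:**
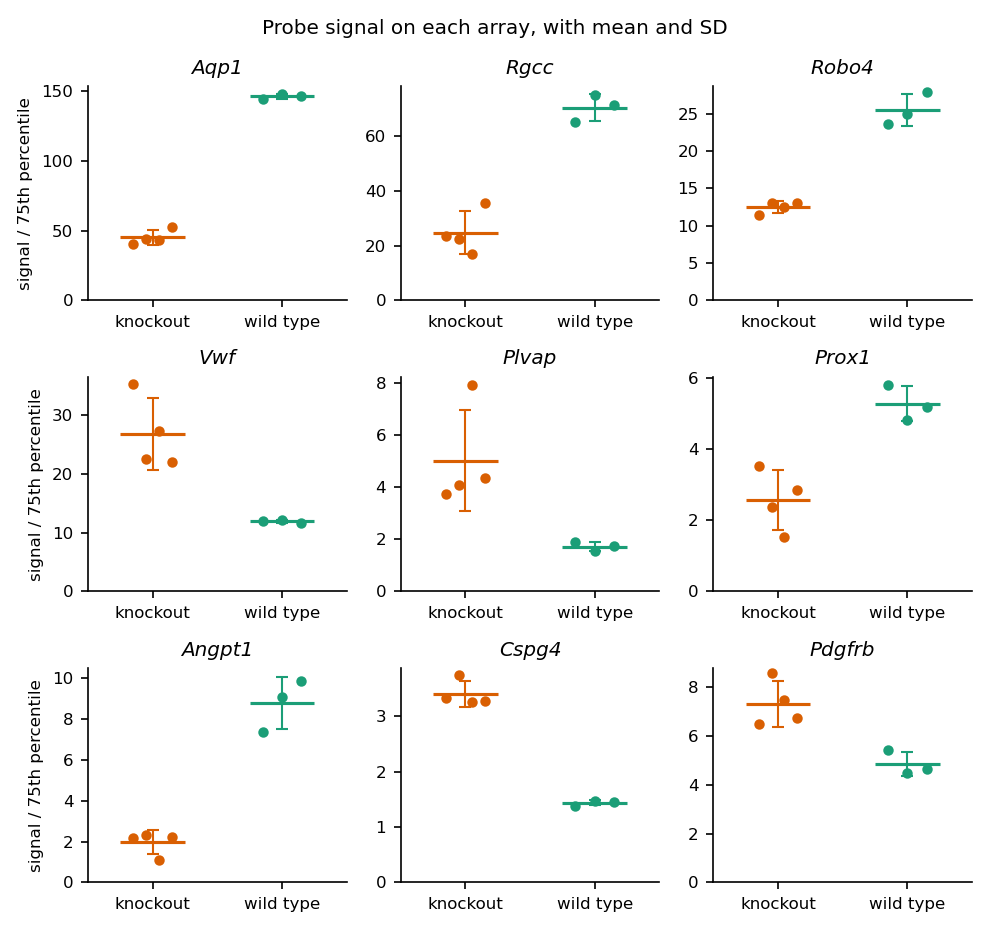
Signal of the probe over that array's 75th percentile (y axis, linear, from 0) for 9 vascular genes, with each knockout array on the left and each wild type array on the right of a panel. Horizontal lines are group means and bars the SD (n = 4 knockout, n = 3 wild type), and the panels show no overlap between the groups for any of the 9 genes. All 9 were drawn from the genes that passed, so the lack of overlap is no further support. Among all genes tested, 51.2% did not overlap.

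Pecam1, Kdr and Cdh5 did not pass. Pecam1, an adhesion molecule of all endothelium, had a signal of 2.17, 1.44, 1.46 and 1.40 in knockout hearts, against 1.64, 1.60 and 1.80 in wild type hearts. The groups overlapped because Mutant_175 was the highest of all 7. The log2 change was -0.08 ± 0.18, with a 95% interval of -0.49 to 0.33. Kdr, the main VEGF receptor, differed by -0.11 (95% interval -0.57 to 0.36), and Cdh5, the cadherin of endothelial junctions, by -0.27 (95% interval -0.57 to 0.02). Cdh5 was lower in all 4 knockout hearts than in any wild type heart, at an adjusted p of 0.12.

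Apln and Emcn gave larger differences that did not pass. Apln, the apelin peptide made by endothelial cells of sprouts and capillaries, had a signal of 0.226, 1.11, 1.77 and 0.872 in knockout hearts, against 2.18, 1.93 and 2.30 in wild type hearts. All knockout hearts were lower, but Mutant_175 stood far below the rest, and the log2 difference was -1.43 ± 0.63 (adjusted p = 0.10). The adjusted p was 0.037 without Mutant_175 and 0.046 without Mutant_187. Emcn, a sialomucin of capillary and venous endothelium, differed by -0.77 ± 0.43 (adjusted p = 0.19), with Mutant_187 at 3.12 and the other knockout hearts between 9.43 and 11.0. The remaining 12 endothelial genes that did not pass were Aplnr, Esam, Egfl7, Angpt2, Sox17, Ptprb, Fabp4, Ets1, Pdgfb, Sox18, Eng and Cldn5, between -0.42 for Aplnr and 0.26 for Cldn5, and the groups overlapped for all 12.

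Because scaling shifts every gene of an array alike, each gene was also set against the mean of Pecam1 and Cdh5 on the same array, a choice made after the data were seen. On that footing Vwf was higher by 1.32 ± 0.21 and Plvap by 1.66 ± 0.64 in knockout hearts relative to wild type (log2, mean ± SD over 4 arrays). Aqp1 was lower by the same measure, at -1.53 ± 0.31, and so were Rgcc at -1.39 ± 0.46 and Robo4 at -0.85 ± 0.28. The rest of the endothelial genes that fell ran from -0.57 ± 0.30 for Flt1 to -0.21 ± 0.22 for Tek, with Ramp2 at -0.22 ± 0.14. The reference genes varied too: Cdh5 was lower in every knockout heart than in any wild type heart, and Pecam1 was high in Mutant_175. A shift common to an array cancels in these differences, and they carry no test.

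ETS factors such as Erg and Ets1 bind the core GGAA, and endothelial promoters are known for it. The 6-letter form AGGAAG was searched on both strands (so also as CTTCCT), in the RefSeq promoters of build GRCm38.p6, which run 250 bases before to 50 bases after the start of a gene. The motif was chosen after the data were seen. A promoter was given for 19 of the 37 genes. It held the motif in 10 of 13 endothelial genes and in 0 of 6 lymphatic, pericyte and smooth muscle genes, and 38.4% of the 27025 genes in the table held it in any of their promoters. Among the endothelial genes with a promoter, 6 of the 7 that fell held it and 4 of the 6 that did not pass held it. The 3 promoters shown, those of Aqp1, Robo4 and Tie1, belong to endothelial genes that were lower in knockout hearts, and capitals mark the motif. A match is only a description of these letters.
Aqp1: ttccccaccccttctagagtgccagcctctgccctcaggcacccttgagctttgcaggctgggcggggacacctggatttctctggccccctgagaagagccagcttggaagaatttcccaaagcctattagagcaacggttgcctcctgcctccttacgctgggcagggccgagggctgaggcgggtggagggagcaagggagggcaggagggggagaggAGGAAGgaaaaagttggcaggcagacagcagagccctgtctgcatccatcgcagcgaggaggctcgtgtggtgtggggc
Robo4: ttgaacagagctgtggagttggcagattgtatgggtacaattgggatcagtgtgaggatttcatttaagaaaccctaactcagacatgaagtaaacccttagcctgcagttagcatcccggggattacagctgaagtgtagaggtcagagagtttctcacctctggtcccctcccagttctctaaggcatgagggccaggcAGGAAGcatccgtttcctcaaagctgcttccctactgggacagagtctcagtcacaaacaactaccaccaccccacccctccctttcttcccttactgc
Tie1: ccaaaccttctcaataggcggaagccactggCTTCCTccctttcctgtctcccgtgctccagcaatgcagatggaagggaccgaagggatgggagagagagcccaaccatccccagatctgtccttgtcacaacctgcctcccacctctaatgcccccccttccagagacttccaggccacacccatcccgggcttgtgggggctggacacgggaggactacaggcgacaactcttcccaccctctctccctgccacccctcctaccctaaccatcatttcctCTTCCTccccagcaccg
The Aqp1 promoter is chr6:55336049-55336348 on the plus strand, that of Robo4 chr9:37401722-37402021 on the plus strand and that of Tie1 chr4:118489800-118490099 on the minus strand, all in GRCm38.p6 and all read 5′ to 3′ along the gene. Aqp1 and Robo4 hold 1 match each, whose first base lies 29 and 49 bases before the start, and Tie1 holds 2. Tek, which also fell, holds none in this window.

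In the angiopoietin system the ligand Angpt1 fell, as did the receptors Tek and Tie1 under percentile scaling but not under spike-in scaling. Angpt1 had a signal of 2.17, 2.33, 1.08 and 2.24 in knockout hearts, against 7.37, 9.08 and 9.86 in wild type hearts. Mutant_187 was the lowest and the groups lay far apart. Its log2 change was -2.22 ± 0.29 (adjusted p = 0.00091), 4.66-fold higher in wild type. Angpt1 is counted here with the pericyte genes and is also known from the heart muscle of the mouse embryo. Its probe lies at chr15:42256343-42256402 on the minus strand of mm9. Angpt2 differed by -0.19 ± 0.14 and Ptprb, the phosphatase that acts on Tek, by -0.16 ± 0.15, and neither passed.

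Among 8 other VEGF and angiopoietin ligands and co-receptors tested, 1 was higher and 3 lower in knockout hearts, with a median of -0.31. This is 12.5% higher and 37.5% lower, against 16.3% and 25.8% of all genes. There were 2 higher and 0 lower when scaled to the spike-in RNA, and 1 lower with quantile normalization. Vegfd, a lymphatic growth factor, changed by 1.53 ± 0.19 (adjusted p = 0.00079). Vegfb, a ligand of Flt1 abundant in heart muscle, changed by -0.85 ± 0.12 (adjusted p = 0.0012). Vash1, an inhibitor of vessel growth made by endothelium, changed by -0.53 ± 0.13 (adjusted p = 0.012). Scaled to the spike-in RNA, Vegfb no longer passed (adjusted p = 0.17) and Vash1 turned to 0.03.

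**Figure D3:**
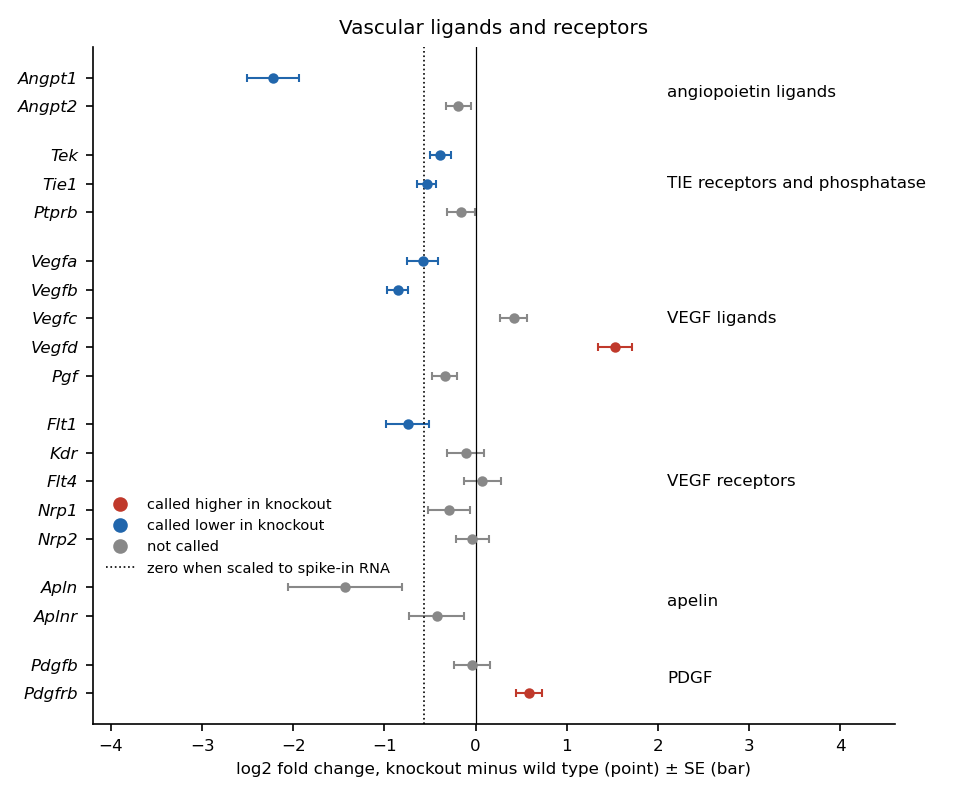
Log2 fold change, knockout minus wild type, with SE as bars, for vascular ligands and their receptors down the page. Red and blue points passed the threshold as higher or lower, and the dotted line at -0.57 is where 0 falls when arrays are scaled to spike-in RNA. Angpt1 at -2.22 lies far below Tek at -0.38, Vegfd at 1.53 is the highest point, and Vegfa, Pgf, Nrp1 and Nrp2 are drawn to complete the VEGF set.

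The 3 lymphatic genes did not move together. Of the 3, 1 passed, or 33.3%, against 42.1% of all genes. Prox1 had a signal of 3.53, 2.38, 1.54 and 2.85 in knockout hearts, against 5.82, 4.83 and 5.20 in wild type hearts. Every knockout heart was lower, with Mutant_187 the lowest. Relative to wild type, the log2 change came to -1.10 ± 0.27 (adjusted p = 0.014, and 0.052 without Wild Type_181). Scaled to the spike-in RNA, Prox1 no longer passed (-0.53, adjusted p = 0.12). It was measured with the probe at chr1:191946360-191946419 on the minus strand of mm9. Prox1 is also known from heart muscle cells of the mouse. Flt4, the receptor of the lymphatic growth factors, differed by 0.07 ± 0.20 and did not pass. Vegfc, its ligand, had a signal of 3.095, 2.63, 3.35 and 2.73 in knockout hearts, against 2.57, 2.06 and 1.999 in wild type hearts. The knockout hearts were all above the wild type, by 0.42 ± 0.14 on the log2 scale, at an adjusted p of 0.051, or 0.043 without Wild Type_181 and 0.0076 when scaled to the spike-in RNA.

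Of 9 other lymphatic genes, 4 were higher and 2 lower in knockout hearts, with a median of 0.17. The shares are 44.4% and 22.2%, against 16.3% and 25.8% of all genes. When scaled to the spike-in RNA 4 were higher and 0 lower, and without Wild Type_189 2 were higher. Pdpn, a mucin of lymphatic endothelium that activated fibroblasts and other cells also carry, changed by 2.02 ± 0.36 (adjusted p = 0.0039). Foxc2, a factor of lymphatic valves, changed by 0.89 ± 0.19 (adjusted p = 0.0079). Itga9, an integrin of the same valves, changed by -1.28 ± 0.21 (adjusted p = 0.0029, and 0.07 when scaled to the spike-in RNA).

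The 4 pericyte genes went both ways, with 2 higher, 1 lower and a median of -0.03. This is 50% and 25%, against 16.3% and 25.8% of all genes. Cspg4, the NG2 proteoglycan of pericytes, had a signal of 3.33, 3.76, 3.25 and 3.28 in knockout hearts, against 1.38, 1.47 and 1.45 in wild type hearts. Both groups were tight and far apart. On the log2 scale it changed by 1.24 ± 0.11 (adjusted p = 0.00016), 2.37-fold higher in knockout hearts, with the probe at chr9:56746627-56746686 on the plus strand of mm9. Pdgfrb, the PDGF receptor of pericytes and fibroblasts, changed by 0.59 ± 0.14 (adjusted p = 0.013), but without Wild Type_183 or Wild Type_189 the adjusted p was 0.057 or 0.054. Its ligand Pdgfb, made by endothelium, differed by -0.04 ± 0.20. Rgs5, a regulator of G protein signalling typical of pericytes, had a signal of 24.1, 15.4, 11.8 and 20.3 in knockout hearts, against 27.9, 26.7 and 26.1 in wild type hearts. It was lower in all 4 knockout hearts, by -0.64 ± 0.24, at an adjusted p of 0.064, or 0.016 without Mutant_175.

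Of 12 other pericyte genes, 0 rose and 3 fell in knockout hearts (median -0.20), or 1 and 2 when scaled to the spike-in RNA. With percentile scaling this is 0% and 25%, against 16.3% and 25.8% of all genes. Abcc9, a subunit of potassium channels in pericytes and in heart muscle, changed by -2.05 ± 0.16 (adjusted p = 0.00012). Kcnj8, the pore of the pericyte channel, changed by -0.83 ± 0.20 (adjusted p = 0.012, and 0.32 when scaled to the spike-in RNA). Vtn, the matrix protein vitronectin, changed by -1.56 ± 0.14 (adjusted p = 0.00021).

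Neither smooth muscle gene passed, where 42.1% of all genes did. Tagln, an actin-binding protein of contractile cells, had a signal of 13.8, 27.3, 44.1 and 23.6 in knockout hearts, against 14.8, 20.1 and 15.2 in wild type hearts. Mutant_175 was below every wild type heart while the other 3 knockout hearts were above them all, and the log2 difference was 0.60 ± 0.36 (adjusted p = 0.22). Without Mutant_175 the adjusted p was 0.029. Cnn1, calponin, had a signal of 1.06, 3.78, 6.85 and 3.14 in knockout hearts, against 2.23, 2.85 and 2.19 in wild type hearts. It showed the same order of knockout hearts, with a log2 difference of 0.34 ± 0.56 (adjusted p = 0.65).

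Of 14 other smooth muscle genes, 4 were higher and 4 lower in knockout hearts, with a median of 0.16. That is 28.6% in each direction, against 16.3% higher and 25.8% lower among all genes. Without any one wild type array 2 were higher, and scaled to the spike-in RNA 5 were higher and 2 lower. Acta2, smooth muscle actin, which myofibroblasts also make, changed by 3.44 ± 0.14 (adjusted p = 1.2e-05), and Myl9, a myosin light chain, by 2.69 ± 0.17 (adjusted p = 4.9e-05). Smtn, smoothelin, changed by -1.52 ± 0.15 (adjusted p = 0.00033). Unlike Tagln and Cnn1, Acta2 and Myl9 were high in all 4 knockout hearts, with shifts from the wild type mean of 3.29 to 3.58 and of 2.40 to 3.07.

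**Figure D4:**
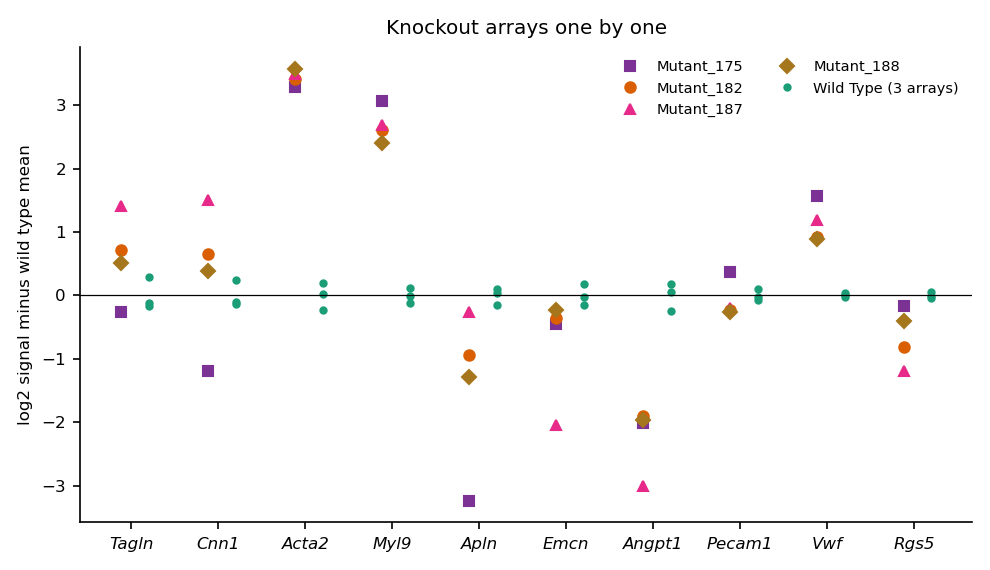
Log2 signal minus the wild type mean (y axis) for 10 vascular and contractile genes, with the 4 knockout arrays as separate symbols on the left and the 3 wild type arrays as green points on the right of each gene. Mutant_175 is the lowest knockout array for Tagln at -0.26, Cnn1 at -1.19 and Apln at -3.24, and Mutant_187 the lowest for Emcn at -2.04 and Angpt1 at -3.01.

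The knockout hearts differed among themselves. Of the 37 genes, Mutant_187 was the lowest knockout heart for 18 and the highest for 9. Mutant_175 was the highest for 14 and the lowest for 11. Such counts were not made over all genes. The median shift of the endothelial genes from the wild type mean was -0.25 in Mutant_175, -0.21 in Mutant_182, -0.42 in Mutant_187 and -0.30 in Mutant_188. Mutant_175 also stood apart in 8 genes of dividing cells, whose median shift was 0.30 there and between 2.78 and 3.94 in the other 3 knockout hearts. Of these 8, 5 passed as higher in the knockout, or 62.5%, against 16.3% of all genes. The count rested on single arrays: 1 without Wild Type_181 or Wild Type_183, 2 without Wild Type_189, 3 without Mutant_182 and 8 without Mutant_175. Birc5 was higher by 3.17 ± 0.40 (adjusted p = 0.00088). In Mutant_175 Birc5 lay 2.24 above the wild type mean, while Bub1, the lowest of the 8 there, lay at -0.91. Ccnb1 differed by 3.42 ± 0.87 (adjusted p = 0.017), with an adjusted p of 0.053 without Wild Type_181 and 0.06 without Wild Type_183. Smarca4 also differed among the knockout hearts, with a log2 shift from the wild type mean of -2.53 in Mutant_175 and -1.18 in Mutant_187. The part of these differences in the values of Tagln, Cnn1 and Apln was not tested.

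For 13 genes more than 1 probe passed the filter, and these were fitted over all 34481 kept probes, of which 40.5% were called. Prox1 gave -1.10 and -1.11 at its 2 probes, and Vegfc gave 0.42, 0.37 and 0.35, of which the probe at 0.37 passed (adjusted p = 0.03). Vwf gave 1.14 at the probe used, and 0.81 and -0.02 at probes for other transcripts, neither of which passed. Cspg4 gave 1.24 and 0.25. Its remaining probe was not well above background in any of the 3 wild type hearts and passed the filter through the knockout hearts alone. There the level was at least 1.82-fold higher in knockout hearts, and no test is attached to that bound. Such a bound sets the mean of the bright group against the lowest signal well above background. Flt1 gave -0.75 at the probe used, and -0.77 and 0.75 at 2 probes for 1 other transcript, which did not pass. Ramp2 gave -0.40 at the probe used and -0.28 at its other probe, which did not pass (adjusted p = 0.16). Eng, a co-receptor of TGF-beta ligands, did not pass at 0.19 but its second probe passed at 0.79 (adjusted p = 0.022). The share of each gene's transcripts that a probe reads is not known here.

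**Figure D5:**
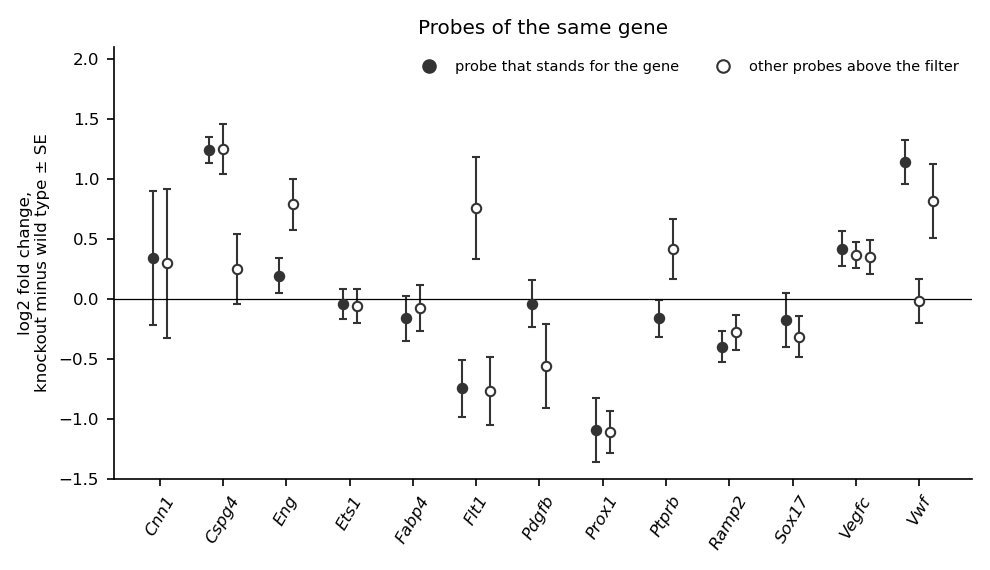
Log2 fold change, knockout minus wild type, with SE as bars (y axis), for the 13 vascular genes with more than 1 probe above the filter. Filled points are the probes that stand for the gene and open points the others. Probes coincide for Prox1 at -1.10 and -1.11 and part for Flt1, at -0.75, 0.75 and -0.77.

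Further endothelial genes were counted by type of vessel. Among 20 other pan-endothelial genes, 3 rose and 5 fell in knockout hearts (median -0.15). These are 15% and 25%, against 16.3% and 25.8% of all genes. Without any one wild type array 3 were lower, and without Mutant_175 5 were higher. Sox13, a SoxD transcription factor, changed by 0.98 ± 0.18 (adjusted p = 0.0039), and Ece1, the endothelin-converting enzyme, by 0.53 ± 0.10 (adjusted p = 0.0048). Mmrn2, a matrix protein of endothelium, changed by -0.63 ± 0.13 (adjusted p = 0.0062). Among 10 capillary genes, 0 rose and 2 fell in knockout hearts (median -0.51), and 5 were lower without Mutant_175. The 2 that fell with all arrays are 20%, against 25.8% of all genes. The 2 were Tcf15, a transcription factor of heart capillaries, at -1.16 ± 0.21 (adjusted p = 0.0039), and Slc9a3r2, a scaffold protein, at -0.67 ± 0.11 (adjusted p = 0.0029).

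Among 12 arterial genes, 5 rose and 0 fell in knockout hearts (median 0.36). This is 41.7% and 0%, against 16.3% and 25.8% of all genes. Mgp, an inhibitor of calcification, changed by 1.52 ± 0.11 (adjusted p = 9.3e-05), Fbln5, an elastic fibre protein, by 1.53 ± 0.12 (adjusted p = 0.00013), and Sulf1, a heparan sulfatase, by 1.89 ± 0.25 (adjusted p = 0.0011). Mgp, Fbln5 and Sulf1 are made by fibroblasts and smooth muscle as well. Of 10 tip cell genes, which mark the leading cells of sprouts, 5 rose and 0 fell (median 1.09), and 8 were higher without Mutant_175. With all arrays this is 50% and 0%, against 16.3% and 25.8% of all genes. Of the tip cell genes, Col4a1 and Col4a2, the chains of basement membrane collagen, changed by 1.27 ± 0.14 and 1.28 ± 0.14 (adjusted p = 0.00046 and 0.0004). Nid2, nidogen, changed by 0.71 ± 0.11 (adjusted p = 0.0019). Esm1 and Pgf went the other way, below the wild type mean in every knockout heart (-1.67 to -0.02 and -0.46 to -0.13). Apln, also made by sprouts and counted above, differed by -1.43 and did not pass. Which cells made Col4a1, Col4a2 and Nid2 was not tested, so these counts do not show sprouting.

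Among 9 venous and activated endothelial genes, 4 rose and 2 fell in knockout hearts (median 0.39). The shares are 44.4% and 22.2%, against 16.3% and 25.8% of all genes. Selp, P-selectin, changed by 2.11 ± 0.38 (adjusted p = 0.004), and Icam1, which leukocytes bind, by 0.91 ± 0.17 (adjusted p = 0.0046). Il6st, the shared receptor of the interleukin 6 family, changed by -0.59 ± 0.10 (adjusted p = 0.0029). Of 8 endocardial genes 1 rose and 1 fell in knockout hearts (median -0.16): Tmem100, a membrane protein of endothelium, at 1.07 ± 0.35 (adjusted p = 0.045), which was lost when single arrays were left out (adjusted p up to 0.14), and Plxnd1, a semaphorin receptor, at -1.59 ± 0.27 (adjusted p = 0.0029). Without Mutant_175 2 endocardial genes were lower, and without Mutant_187 2 were higher. With all arrays 25% of the endocardial genes were called, against 42.1% of all genes.

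When scaled to the spike-in RNA, these further lists gave 4 higher and 0 lower for pan-endothelial genes, 1 and 0 for capillary genes, 9 and 0 for arterial genes, 8 and 0 for tip cell genes, 5 and 0 for venous and activated endothelial genes, and 3 and 1 for endocardial genes, against the 37.2% higher and 7.44% lower among all genes under that scaling.

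Markers of other heart cells also differed between the groups, though not in every heart. All 11 cardiomyocyte genes were lower in the knockout by fold change and 8 of them passed, with a summed signal of 2991 to 3939 in knockout hearts, against 6056 to 6621 in wild type hearts. The count that passed was 4 with quantile normalization, with normexp or with scaling to the spike-in RNA, and normexp also gave 1 higher. Among 10 fibroblast genes 8 were higher, with a summed signal of 579 to 827 in knockout hearts, against 307 to 339 in wild type hearts. Among 10 macrophage genes 7 were higher, with a summed signal of 149 to 247 in knockout hearts, against 141 to 151 in wild type hearts. Mutant_175, at 149, lay within the wild type range, and 1 macrophage gene, Itgam, was lower by fold change, at -0.34. Tnni3 and Myoz2, of the sarcomere, changed by -2.21 ± 0.16 and -2.56 ± 0.23, the collagen genes Col1a2 and Col1a1 by 2.81 ± 0.22 and 3.14 ± 0.33, and Mrc1 and C1qb, of macrophages, by 1.41 ± 0.14 and 1.16 ± 0.18 (adjusted p at most 0.0019). By share, 72.7% of the cardiomyocyte genes were called lower, against 25.8% of all genes. The share called higher was 80% for fibroblast and 70% for macrophage genes, against 16.3% of all genes. No marker of these 3 lists was below background on every array. The part of the other cell types in the changes of the vascular genes was not tested.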

How the data were processed

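Total RNA of 7 mouse hearts (4 knockout, 3 wild type) was labelled with Cy3 after spike-in RNA was added, per the labels' protocols, and scanned on SurePrint G3 arrays. Per the file headers, Agilent Feature Extraction 10.7.3.1 gave for each spot an intensity, its processed signal (linear, background already subtracted), flags of saturation, outliers and level above background, and probe positions on mm9. The deposited value table holds the same intensity, since 99.6% of its cells lay within 0.01 (log2) of the scanner value, and was used only as an alternative.

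Each array had 59305 non-control spots, of which 82 to 146 outliers were left out. Spots of a probe were averaged, log2 was taken and the array's 75th percentile subtracted. Of 56605 probes, the 34481 flagged as well above background in 3 or more hearts were kept, and a gene was its brightest kept probe. For every vascular gene this was also its brightest probe of all. Genes were named through RefSeq accessions of GRCm38.p6, names only, which matched 32994 probes. limma 3.58.1 in R 4.3.3 fitted knockout against wild type with no covariates, with Benjamini-Hochberg adjustment over 22971 genes. The fit was tested on simulated data. Motifs were searched in RefSeq promoters, and figures were drawn with matplotlib 3.10.9. Scaling to the percentile removes any difference in total messenger RNA, which 7 spike-in probes address as an alternative. The number of arrays limits the precision.

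Named genes were all 37 vascular genes, and the called genes of smallest p in each further list (up to 3, or 2 for other cell types). The members and lists were chosen with earlier results of these data known. Values on every array are given for called vascular genes with a log2 change of at least 1 in size, for the gene of smallest p in each of the 4 classes (Tagln for smooth muscle) and, chosen after their values were seen, for Pecam1, Apln, Vegfc, Rgs5 and Cnn1. Samples of the design beyond these 7 were not analysed here.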

Additional observations from a re-analysis of the deposited data

Results flagged for a closer look

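In 3 genes 1 knockout heart stood apart from the other 3, by the gap to its nearest neighbour as a share of the group's whole range. Chance alone flags about 1 in 20 groups, and all 37 vascular genes were examined in the knockout group. For Pecam1 the share was 0.893, with Mutant_175 high at 2.17 and the other knockout hearts between 1.40 and 1.46. For Emcn it was 0.880, with Mutant_187 low at 3.12 and the others between 9.43 and 11.0. For Angpt1 it was 0.904, with Mutant_187 low at 1.08 and the others between 2.17 and 2.33. Wild type hearts were between 1.60 and 1.80 for Pecam1, 11.6 and 14.6 for Emcn, and 7.37 and 9.86 for Angpt1.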

How the results depend on the processing

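Of the 15 vascular genes that passed, 6 passed under every one of the 18 alternatives run: Aqp1, Rgcc, Vwf, Plvap, Cspg4 and Angpt1. 16 of the other 22 never passed. Scaling to the spike-in RNA added 0.57 to each log2 change and put the median of all genes at 0.44. It gave 8 vascular genes higher and 3 lower, against 4 and 11, with 4 and 2 among endothelial genes and 1 smooth muscle gene called. The median of all genes was -0.01 with the 75th percentile taken over bright probes only (well above background on every array) and 0.02 with no filter. The median of the endothelial genes was -0.12 with quantile normalization, -0.10 with that percentile, -0.11 with normexp and 0.35 with the spike-in RNA. 2 lymphatic genes were called with quantile normalization, that percentile, normexp, the filter on all arrays, the mean over kept probes, the trended prior and array weights, Vegfc being the second. Leaving out single arrays gave 3 to 5 genes higher and 7 to 13 lower, with 2 and 5 to 10 among endothelial genes, 1 lymphatic gene, 2 to 4 pericyte genes and 0 to 1 smooth muscle gene (Tagln, without Mutant_175), and an endothelial median of -0.29 to -0.16.

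Directions turned as follows (log2). With the spike-in RNA, Pecam1 was 0.49, Cdh5 0.29, Kdr 0.46, Tek 0.18, Tie1 0.028, Esam 0.33, Egfl7 0.37, Ptprb 0.40, Ramp2 0.17, Sox17 0.39, Ets1 0.52, Aplnr 0.14, Pdgfb 0.53, Angpt2 0.38, Fabp4 0.40 and Vash1 0.033. With quantile normalization, Kdr was 0.043, Egfl7 0.032, Ptprb 0.0015, Ets1 0.0038, Pdgfb 0.072 and Fabp4 0.11. With normexp, Kdr was 0.0087, Egfl7 0.030, Ets1 0.023, Pdgfb 0.076 and Fabp4 0.12. With the percentile over bright probes, Pecam1 was 0.036, Kdr 0.0069, Ets1 0.070 and Pdgfb 0.075. With array weights, Sox18 was -0.21, Ets1 0.034 and Flt4 -0.027. With the mean over kept probes, Ptprb was 0.13 and Smarca2 -0.046. Without single arrays, Sox18 ran between -0.17 and 0.40, Ets1 -0.091 and 0.029, Kdr -0.27 and 0.016, Pdgfb -0.17 and 0.090, Flt4 -0.076 and 0.19, and Cnn1 -0.050 and 0.85. The spike-in shift is the same for every gene. The cause of the other turns was not tested. No paired analysis was possible because no replicate number is shared between the groups.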
